A study of Oryza sativa Indica Group with 6 samples.

Results

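The KNOX (KNOTTED1-like homeobox) genes of rice were examined through 10 named members of the family, each read from the probe sets annotated to its symbol or synonym, with the probe set of highest mean signal taken for each gene. The 10 names stand for 9 genes, since *HOS3* and *OSH15* are names of the same gene. Of these 9, 7 had a probe set of their own, out of 17905 genes with one on the array. They were the class I genes *OSH1* (LOC4333973), *OSH6* (LOC4325788), *OSH71* (LOC4337701) and *HOS13* (LOC4333975, also named *OSH3*), and the class II genes *HOS58* (LOC4328520), *HOS59* (LOC4341661) and *HOS66* (LOC4331449). The only probe set of *OSH15* is also annotated to another gene, so its signals, between 1.3 and 2.5 on the 6 arrays, could not be assigned to it. *OSH10* matched no probe set and was not analysed here.

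Signals were compared between the wild-type *indica* cultivar 3037 and *sd37*, a spontaneous semi-dwarf mutant found in that cultivar that carries a point mutation in the cytochrome P450 gene *CYP96B4*. Seedlings were 2 weeks old and had been grown in a phytotron with 16 h of light at 26°C and 8 h of dark at 18°C, with 3 biological replicates and 3 Affymetrix Rice Genome Arrays for each genotype. All *sd37* plants come from 1 mutant line. The labels and the methods name seedlings, while a footnote of the study names apices, so the tissue is given in both ways.

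KNOX proteins are homeodomain transcription factors. Class I genes such as *OSH1*, the rice counterpart of maize *KNOTTED1*, are expressed in the indeterminate cells of the shoot apical meristem and switched off where a leaf begins, and their loss or ectopic expression disturbs meristem upkeep, leaf shape and internode growth. They act partly through hormones, by raising cytokinin synthesis, by limiting gibberellin and, in rice, by activating the *CYP734A* genes that inactivate brassinosteroids. Class II genes are expressed more widely, in differentiating and mature organs, and in *Arabidopsis* they have been found to act against the class I genes.

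The deposited signals are on a linear scale in arbitrary units, and log2 signals were tested. The median signal was 40.1 over all values and lay between 32.3 and 56.2 on the 6 arrays, with the highest medians in replicate 1 of both genotypes and medians of 32.3 to 34.3 in replicates 2 and 3. All 4 measured leaf markers had signals of 100 or more on every array. Of 5 measured markers of the shoot apex, *FON1*, a receptor kinase gene of meristem size, and *LOG*, a gene of cytokinin activation, had such signals on every array, while *WOX4* and *SPL14* stayed under 100 on every array. In seedling RNA, fewer cells of a type and less RNA per cell cannot be told apart.

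The class II genes *HOS58* and *HOS59* stood apart from the other 5 genes in the array's signal range. *HOS58* and *HOS59* had signals of 100 or more on all 6 arrays, and their mean signals were above those of 99.2% and 99.1% of the probe sets. The other 5 genes stayed under 100 on every array, the class II gene *HOS66* among them. Their mean signals stood at the percentiles 20.1 (*OSH1*), 50.4 (*OSH6*), 34.8 (*OSH71*), 25.5 (*HOS13*) and 13.4 (*HOS66*). These ranks describe the probe sets and not the order of the transcripts, since probe sets differ in how strongly they respond. No detection calls were used, so whether the low signals exceed background is not known. The defining class I genes of the shoot apex were thus all under 100, while the apex markers *FON1* and *LOG* were at 100 or more, and the signals do not settle how much apex the samples held.

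The precision of the values differed along the signal range. Among the 25% of probe sets with the lowest signal the median standard error of the genotype difference was 1.08 on the log2 scale, and among the 25% with the highest it was 0.29. Only *HOS58* and *HOS59* fell into the highest 25%.

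**Figure D1:**
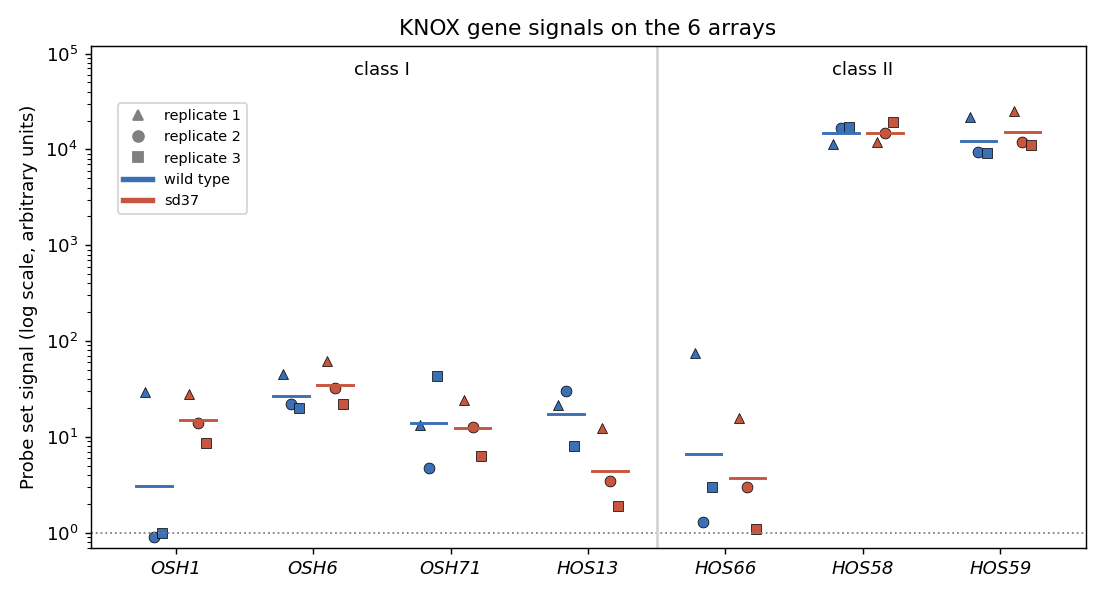
Signal of each KNOX gene (log axis, arbitrary units) on the 6 arrays, with wild type in blue, *sd37* in red, a symbol for each replicate number and a horizontal bar for the mean of the 3 log2 signals of a genotype. The dotted line marks the floor of 1 to which lower values were set for the tests. *HOS58* and *HOS59* lie between 9249 and 25301 and the other 5 genes under 100, and the genotypes overlap for all 7.

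None of the 7 genes was called between the genotypes. In limma, with Benjamini-Hochberg adjustment over all 57258 probe sets and a change of at least 1.5-fold, 0% of all probe sets were called, and at an unadjusted p under 0.05 with that change 2.18% were, none of them a KNOX gene. The signals of the genotypes overlapped for all 7 genes, whereas 6.07% of all probe sets had groups that did not overlap. The median log2 fold change of the 7 genes, given throughout as *sd37* over the wild type, was 0.01, beside 0.02 over all probe sets.

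*OSH1* marks the undetermined cells of the shoot meristem. Its signal was 29.5, 0.9 and 1.0 in replicates 1 to 3 of the wild type and 28.4, 14.0 and 8.6 in *sd37*. Both replicate 1 arrays were alike, and the wild-type arrays of replicates 2 and 3 were at the floor. On the log2 scale *sd37* had a value 2.29 above the wild type (standard error 1.44, 95% interval -1.03 to 5.61, n = 3 arrays for each genotype, adjusted p = 1 in limma), with differences of -0.05 in replicate 1 and 3.81 and 3.10 in replicates 2 and 3. The other probe set of *OSH1*, of a design that can bind related transcripts, had signals of 4.2, 1.2 and 19.0 in the wild type and 1.4, 4.5 and 1.6 in *sd37*, or a log2 fold change of -1.08 with a standard error of 1.13. The probe sets of this gene thus differed in the direction of their values, and neither passed. The value of *OSH1* was 0.44 with log2(value + 16) and 0.60 as the mean over its probe sets, and it was 1.47 without wild-type replicate 2 or 3 and 3.91 without wild-type replicate 1.

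*HOS13* is a class I gene that lies near *OSH1* on the same chromosome, with 1 annotated gene between them. Its signal was 21.3, 30.5 and 8.1 in the wild type and 12.5, 3.5 and 1.9 in *sd37*. It was lower in *sd37* within each replicate number, with log2 differences of -0.77, -3.12 and -2.09, but wild-type replicate 3 lay below *sd37* replicate 1. The mean log2 difference was -1.99 (standard error 1.06, 95% interval -4.43 to 0.44, adjusted p = 1 in limma). So the neighbouring genes *OSH1* and *HOS13* had the widest fold changes of the class I genes, with opposite signs, and both intervals held 0. The *HOS13* value was -0.69 with log2(value + 16) and ran from -2.75 to -1.39 with single arrays left out.

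*OSH6* and *OSH71* are class I genes that, like *OSH1*, are known from the shoot apex of rice. *OSH6* had signals of 45.2, 21.9 and 19.9 in the wild type and 62.3, 32.1 and 21.9 in *sd37*, or a log2 fold change of 0.38 (95% interval -1.33 to 2.09, standard error 0.74). Its differences were 0.46, 0.55 and 0.14, so *sd37* was the higher in each replicate number, by less than the spread between replicates. *OSH71* had signals of 13.4, 4.8 and 43.5 in the wild type and 24.5, 12.8 and 6.3 in *sd37*, or a log2 fold change of -0.17 (95% interval -2.68 to 2.34, standard error 1.09). Its differences were 0.87, 1.42 and -2.79 and changed sign with the replicate.

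*HOS66* is a class II gene of low signal here. Its signal was 75.2, 1.3 and 3.0 in the wild type and 15.8, 3.0 and 1.1 in *sd37*, or a log2 fold change of -0.83 (95% interval -4.69 to 3.03, standard error 1.67). The replicate 1 arrays were the highest of each genotype, and the differences by replicate number, -2.25, 1.21 and -1.45, had no common sign.

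The class II genes *HOS58* and *HOS59* had the narrowest intervals. *HOS58* had signals of 11492, 16825 and 16919 in the wild type and 11907, 14689 and 19159 in *sd37*. Its log2 fold change was 0.01 as deposited (standard error 0.27, 95% interval -0.60 to 0.62). With every array centred on its own median it was -0.07 with a standard error of 0.49, so the width of the interval depended on the scaling. *HOS59* had signals of 21907, 9344 and 9249 in the wild type and 25301, 12039 and 11141 in *sd37*, with replicate 1 far above the other arrays in each genotype. Its log2 fold change was 0.28 (standard error 0.44, 95% interval -0.72 to 1.29).

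Within each replicate number the *HOS59* signal was the higher in *sd37*, by 0.21, 0.37 and 0.27 on the log2 scale. Differences of 1 sign in all 3 replicate numbers were found in 26.3% of all probe sets, and in 3 of the 7 KNOX genes, which were *OSH6*, *HOS13* and *HOS59*. The fit without a block left out any pairing by replicate number. Deviations from the group mean correlated no better for matched replicates 2 and 3 (0.13 and 0.16) than for crossed ones (0.16 and 0.13). Whether these numbers mark pairs is therefore not shown. With the replicate number as a block, the standard error of the *HOS59* difference was 0.09 and its 95% interval 0.07 to 0.49, and that of *HOS58* was -0.22 to 0.25. The blocked intervals of *OSH1* (-0.22 to 4.79), *HOS13* (-4.29 to 0.30), *OSH6* (-1.14 to 1.91), *OSH71* (-2.72 to 2.39) and *HOS66* (-3.15 to 1.49) held 0. The block did not bring a KNOX gene past the threshold (*HOS59* unadjusted p = 0.0136 and adjusted p = 0.739 in limma), in a fit that called 0.0105% of all probe sets. Exact permutation tests over the arrays gave two-sided p-values of 0.2 to 1 for the 7 genes, and 3 arrays against 3 cannot go below 0.1.

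**Figure D2:**
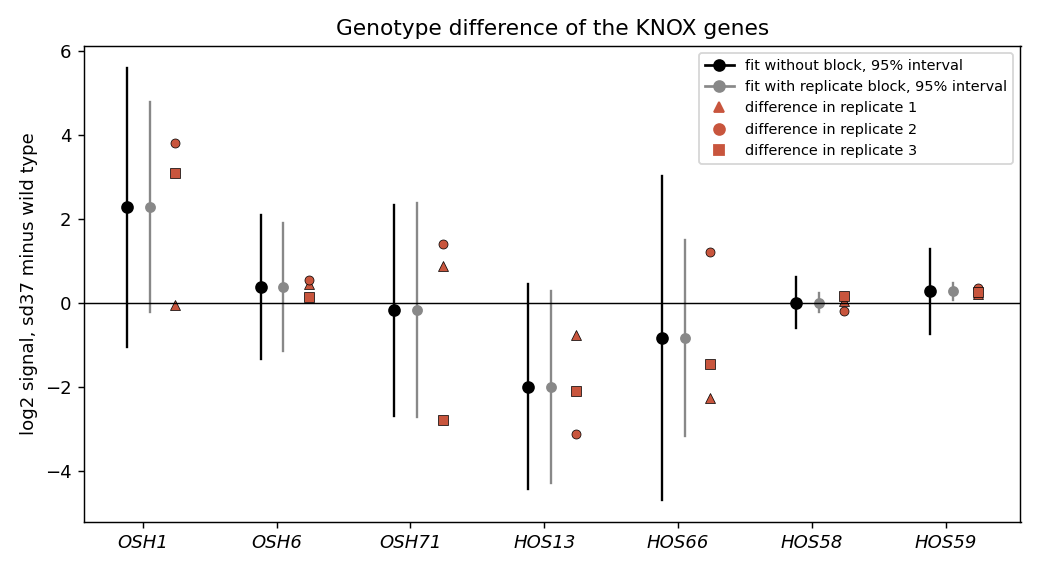
Difference in log2 signal, *sd37* minus wild type, of the 7 KNOX genes, with 95% intervals from limma without (black) and with (grey) the replicate number as a block and the difference within each replicate number as red symbols. All intervals without the block include 0, the blocked interval of *HOS59* runs from 0.07 to 0.49, and those of *HOS58* and *HOS59* are the narrowest.

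By replicate number the KNOX signals differed more widely than by genotype in 6 of the 7 genes, *HOS13* being the exception. Replicate 1 was compared with replicates 2 and 3 over both genotypes, with the genotype in the fit, and 19.2% of all probe sets were called (9.38% higher and 9.85% lower in replicate 1). This split was chosen with earlier results of these data known. The p-values and calls by replicate number, here and below, therefore describe these arrays and do not test a split set beforehand. Among the probe sets of at least median signal 10705 of 28629 were called. The balance of directions depended on the scaling, with 48.8% of the calls higher in replicate 1 as deposited, 42.3% after quantile normalization and 14.2% after centring. Of the 7 KNOX genes, 2 were called, both higher in replicate 1, and no gene was called lower. Exact permutation tests by replicate number gave p-values of 0.0667 to 0.6 for the 7 genes, and this split cannot go below 0.0667. The arrays of replicate 1 did not overlap with the others for 5 of the 7 genes (*OSH1*, *OSH6*, *HOS58*, *HOS59* and *HOS66*), beside 44.9% of all probe sets. Of these 5, *HOS58* was lower in replicate 1 (17.6% of all probe sets) and the others higher (27.4%). The median difference of the 7 genes was 1.18 on the log2 scale and that of all probe sets 0.39, which is the general shift of replicate 1 in the deposited values. The sources used here do not say what set the replicates apart, and its part in these values was not tested.

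*HOS59* was called. Its mean signal was 23543 in replicate 1 and 10376 in replicates 2 and 3, a difference of 1.18 (standard error 0.10, n = 2 against 4 arrays, 95% interval 0.96 to 1.40, adjusted p = 5.4e-05 in limma). This is 2.27-fold, and 0.79 above the shift of all probe sets. With every array centred on its own median the difference was 0.51 (adjusted p = 0.00575), which is under the 1.5-fold limit and ended the call. The exact permutation test of *HOS59* by replicate number gave p = 0.0667, the smallest value possible for this split.

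*HOS58* went the other way. Its mean signal was 11698 in replicate 1 and 16824 in replicates 2 and 3, a difference of -0.52 (standard error 0.12, 95% interval -0.80 to -0.25, adjusted p = 0.0147 in limma). At 1.44-fold it missed the size limit and was not called as deposited, while it was called after quantile normalization (-0.80) and after centring (-1.20), and without *sd37* replicate 2 (-0.61). The direction was the same under each of these settings.

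Since these 2 genes lie in the same part of the signal range, their ratio within each array, chosen after their values were seen, needs no scaling between arrays. The log2 ratio of the *HOS59* to the *HOS58* signal was 0.93, -0.85 and -0.87 in wild-type replicates 1 to 3 and 1.09, -0.29 and -0.78 in *sd37*. Its sign has no meaning across different probe sets, but its change does not depend on the scale of an array. Its mean was 1.71 higher in replicate 1 than in replicates 2 and 3. This restates the opposite differences of the 2 genes on a scale-free measure. An exact two-sided test of it over the arrays gave p = 0.0667, the smallest value possible here. No conclusion is drawn from that test, since the ratio was chosen after the values were seen. Between the genotypes it differed by 0.16, 0.56 and 0.09 in the 3 replicate numbers.

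**Figure D3:**
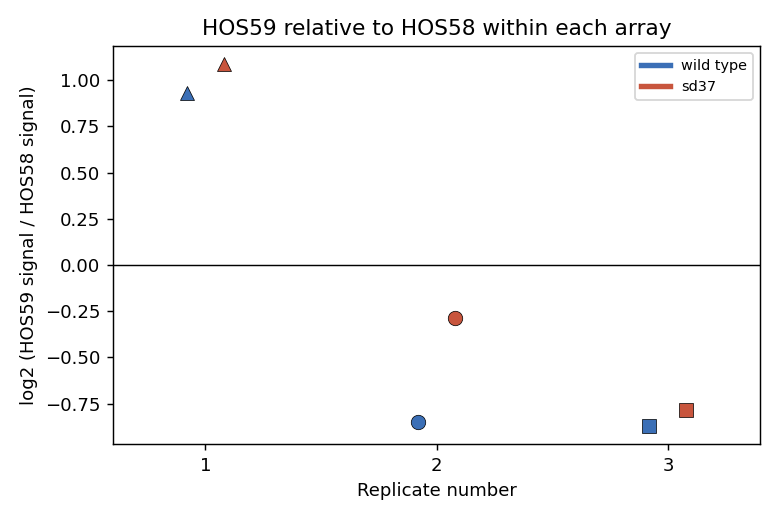
Log2 of the *HOS59* signal over the *HOS58* signal on each array, by replicate number, with wild type in blue and *sd37* in red. Both replicate 1 arrays lie near 1 (mean 1.01) and the 4 others below 0 (mean -0.70).

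Among the genes of low signal, *HOS66* was called higher in replicate 1. Its difference was 4.19 (standard error 1.001, 95% interval 1.91 to 6.46, adjusted p = 0.0168 in limma), from mean signals of 34.5 and 1.89. The 18.2-fold size rests on signals of 1.1 to 3.0 in replicates 2 and 3. The call was lost without wild-type replicate 1 (adjusted p = 0.142), wild-type replicate 2 (adjusted p = 0.0568) or *sd37* replicate 3 (adjusted p = 0.0533).

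No class I gene was called by replicate number. *OSH1* had a difference of 3.13 (standard error 1.09, 95% interval 0.65 to 5.60, adjusted p = 0.0743 in limma). It passed with a pseudocount of 16 in place of the floor (1.07, adjusted p = 0.0364). It did not pass after quantile normalization (2.41, adjusted p = 0.173) or as the mean over its probe sets (1.28, adjusted p = 0.410). The value was 4.88 without *sd37* replicate 1 and 1.37 without wild-type replicate 1. The other probe set of *OSH1* had a difference of -0.56. *OSH6* had 1.17 (standard error 0.65, adjusted p = 0.236) and *HOS13* 1.36 (standard error 1.06, adjusted p = 0.401). *OSH71* had 0.67 (standard error 1.15, adjusted p = 0.718) and turned to -0.0606 after quantile normalization. Replicate 1 held the highest *OSH6* signal of each genotype, while the *OSH71* signal was highest in wild-type replicate 3.

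Whether the genotype difference itself changed with the replicate was tested as an interaction. No probe set was called (0%), and 7.71% had an unadjusted p under 0.05 with at least a 1.5-fold size, none of them a KNOX gene. The *OSH1* genotypes were alike in replicate 1 and 3 to 4 log2 units apart in the others, where the wild-type arrays were at the floor. Its genotype difference in replicate 1 minus that in replicates 2 and 3 was -3.51 (standard error 1.67), with 1 array per genotype in replicate 1. This value was -0.72 with log2(value + 16) and -2.13 as the mean over its probe sets. For *HOS59* the interaction value as deposited was -0.11 (standard error 0.18).

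Across the 6 arrays, as a description of arrays that fall apart by replicate number, the log2 signal of *HOS59* had Pearson correlations of 0.97 with *OSH6*, 0.85 with *OSH1* and -0.90 with *HOS58*. *OSH71* had correlations between -0.35 and 0.39 with the other 6 genes. The 5 named genes of at least median signal most like *OSH1*, among 91 such probe sets, were *AGPS2* (0.96), a subunit gene of the starch enzyme ADP-glucose pyrophosphorylase, *HSFA2D* (0.95), *GSK4* (0.93), *CPK7* (0.90) and *CWZF3* (0.83). Those most like *HOS59*, a gene added to this comparison after its values were seen, were *LPR2* (0.98) and *HIRL1* (0.97), and those most like *HOS58*, added in the same way, were *RPL7A-1* (0.98), a ribosomal protein gene, and *IRX9L* (0.97). All these values come from the same 6 arrays and hold the split of replicate 1.

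A wider list of shoot meristem genes held 2 more KNOX genes. *OSH45*, a further class II gene, had signals of 6080, 8241 and 8327 in the wild type and 5432, 9592 and 8574 in *sd37*. Like *HOS58* it was lower in replicate 1 (log2 difference -0.59, standard error 0.11, adjusted p = 0.00482 in limma). At 1.51-fold it was called, and its genotype difference was 0.03. *OSH43*, a class I gene, had signals of 67.8, 12.8 and 5.9 in the wild type and 62.9, 2.8 and 17.7 in *sd37*. It was higher in replicate 1 without passing (3.06, standard error 1.03, adjusted p = 0.0676).

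Of the 10 measured genes of that list, 2 were called higher and 1 lower in replicate 1, with a median difference of 0.93, beside the 19.2% called and the median of 0.39 over all probe sets. *LOG*, which encodes the enzyme that frees active cytokinins and is needed for meristem activity in rice, had a mean signal of 9161 in replicate 1 and 3173 in the others (1.53, standard error 0.10, adjusted p = 1.9e-05). *PLA3*, a gene of the pace of leaf initiation, was higher by 1.45 (standard error 0.24, adjusted p = 0.0026). None of the 10 was called between the genotypes. *LAX1*, a gene of axillary meristems, came nearest, with signals of 17.7, 28.7 and 23.1 in the wild type and 103.7, 81.0 and 33.1 in *sd37* (1.52, standard error 0.68, unadjusted p = 0.0568, adjusted p = 1). Its genotypes did not overlap, which was also so for 6.07% of all probe sets. *SPL14*, a regulator of tillering and panicle branching, had a genotype difference of -1.79 (standard error 1.13) and *FON1* one of -0.33 (standard error 0.26).

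Genes that restrain KNOX genes or shape the leaf were called in both directions by replicate number. Of 11 measured genes of leaf polarity and KNOX repression, 7 were called lower, 2 higher and 2 not called, with a median of -1.08, beside 9.85% called lower and 9.38% called higher among all probe sets and a balance of directions that shifts with the scaling. Of these 11 genes, 8 had signals of 100 or more on every array. Among probe sets of at least median signal, 10705 of 28629 were called in either direction. *RS2*, the counterpart of a maize repressor of KNOX genes in leaves, had signals of 178, 254 and 342 in the wild type and 117, 240 and 281 in *sd37*, and was lower in replicate 1 (-0.94, standard error 0.24, adjusted p = 0.0202). All 5 class III homeodomain-leucine zipper genes, which specify the upper side of the leaf, were lower, from -1.06 (*HOX33*) to -2.095 (*HOX32*). Of the called YABBY genes *YAB1* (2.18) and *YAB2* (1.504) were higher and *YAB6* (-1.43) was lower. *DL*, of the same list, was higher without passing (2.73, adjusted p = 0.0591 in limma). The names *YAB3*, *YAB4*, *YAB5* and *YAB7* fitted several genes and were not analysed here. No gene of this list was called between the genotypes, and *HB5* had the smallest p (-0.83, standard error 0.46, adjusted p = 1).

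The hormone genes linked to class I KNOX genes were called in both directions by replicate number, and none by genotype. *CYP734A4*, of brassinosteroid inactivation, had mean signals of 474 in replicate 1 and 145 in the others (1.71, standard error 0.24, adjusted p = 0.00107), and *CYP734A6* 104 and 46.3 without passing (1.17, adjusted p = 0.152). Of 7 measured gibberellin genes 2 were called higher, 3 lower and 2 not called, beside 19.2% called among all probe sets and 10705 of 28629 among those of at least median signal. *SD1*, which encodes the GA 20-oxidase GA20OX2 that class I genes are known to repress in other plants, was lower in replicate 1 (-0.90, from mean signals of 345 and 644, adjusted p = 0.00713), and so was *EUI1*, for a gibberellin-inactivating enzyme (-2.01, adjusted p = 0.000737). *CPS1*, of the first committed step, was higher by 3.77 (adjusted p = 0.00419), while *KS1*, of the following step, was lower (-1.18, adjusted p = 0.000203). The genotype differences of *CYP734A4* and *SD1* were -0.40 and 0.07. The BELL partners of KNOX proteins, the IPT genes of cytokinin synthesis, the GA 2-oxidase and GA 3-oxidase genes and *GA20OX1* and *GA20OX4* matched no name in the gene table and were not analysed here, so the measured gibberellin genes leave out the GA 2-oxidases that class I genes are known to activate in maize.

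**Figure D4:**
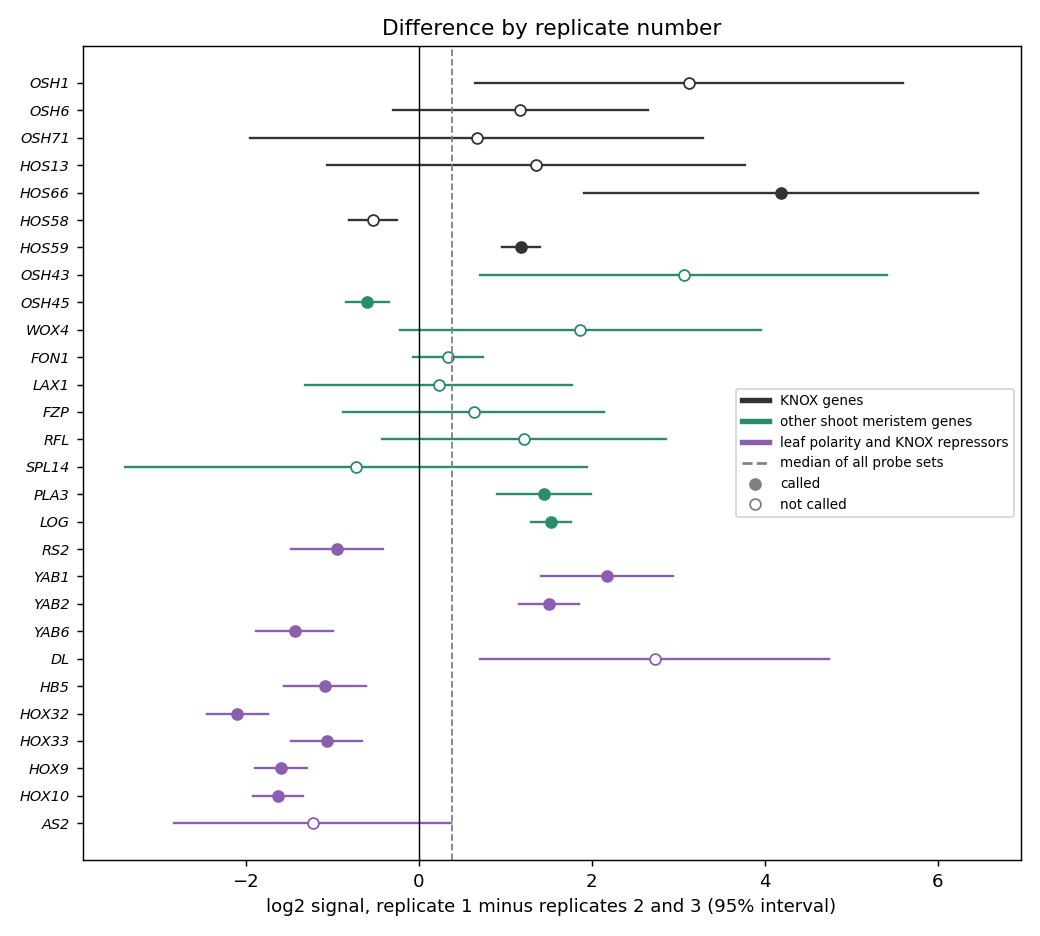
Difference in log2 signal between replicate 1 and replicates 2 and 3, with 95% intervals from limma, of the 7 KNOX genes (black), 10 other shoot meristem genes (green) and 11 genes of leaf polarity and KNOX repression (purple), with called genes as filled points. The dashed line is the median of all probe sets, 0.39. *HOS59* and *HOS66* are the called genes among the 7 KNOX genes, and *HOS58* lies below 0 without a call. *OSH45*, a KNOX gene drawn in green, was called lower, as were 7 of the 11 leaf genes. *OSH71* lies above 0 as deposited and at -0.0606 after quantile normalization.

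Markers of other organs moved with the same split of the arrays. All 4 measured leaf markers were called higher in replicate 1, beside 9.38% called higher among all probe sets. These markers have high signals, and among probe sets of at least median signal 10705 of 28629 were called in either direction. Their summed signals were 229081 and 270237 in replicate 1 and 96874 to 131089 in replicates 2 and 3. *CAB2R*, a gene of the light-harvesting complex, had mean signals of 79123 in replicate 1 and 18219 in the others. Of 15 inflorescence and flower markers 6 were called lower, none was called higher and 9 stayed under 100 on every array, beside 9.85% called lower among all probe sets, with summed signals of 2359 and 3259 in replicate 1 and 17798 to 21133 in the others. These sums came mainly from *MADS18* and *MADS14* in replicates 2 and 3, and from *MADS18* and *MADS16* in replicate 1. By replicate number *MADS6* (1.72), *MADS7* (3.24), *MADS17* (1.80), *MADS8* (1.32), *MADS13* (0.86), *MADS58* (0.77) and *MADS4* (0.03) had values above 0 without passing. Of 5 root markers 2 were called lower and none higher, with summed signals of 1893 and 2048 in replicate 1 and 2676 to 4688 in the others, and *LSI2*, a silicon transporter gene of roots, stayed between 1.4 and 8.2. The summed signal of the 5 shoot apex markers was 10120 and 11583 in replicate 1 and 4249 to 5008 in the others, for the greater part from *LOG*. The part of these organs in the KNOX values was not tested.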

How the data were processed

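The deposited table holds 1 intensity signal for each of 57381 probe sets and 6 arrays, on a linear scale, made and normalized by the authors' hybridization service with an algorithm not given in the sources used here. Extraction is described as guanidinium and phenol in the methods and as a column kit in the labels. The 123 controls were left out, values under 1 (1.77%) were set to 1, and log2 was taken. Of the other probe sets, 22436 carried 1 gene, 95 several and 34727 none in the platform's annotation, with names updated through the RefSeq gene table of ASM3414082v1. Genes were read from the probe set with the highest mean, and probe sets of several genes were not used.

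Each probe set was fitted with limma 3.58.1 in R 4.3.3 (lmFit, eBayes with trend), two-sided, with Benjamini-Hochberg adjustment over 57258 probe sets. A call needed an adjusted p under 0.05 and a change of 1.5-fold. Mean signals are geometric. The genotype and replicate fits were tested on simulated data with independent noise. The simulated genotype data held no difference of replicate 1, so that test does not cover the split of these arrays. The methods name an ANOVA, which for 2 genotypes is the methods' t-test and was run as an alternative. Replicate numbers were taken from the labels. Deviations from the group mean correlated across probe sets with 0.39, 0.13 and 0.16 for replicates 1 to 3 of the 2 genotypes. Crossing replicates 2 and 3 gave 0.16 and 0.13. The main genotype fit held no replicate term, so its standard errors, intervals and p-values leave out any pairing. The numbers were used as pairing in the replicate block and in the differences within each replicate number. Alternatives were quantile normalization, centring, log2(value + 16), a signal filter, the replicate block and leaving out each array.

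All 10 members are named. From each list the 3 genes of smallest p in either comparison and genes of known KNOX links were to be named, and others were chosen after their values were seen. The members, lists and the split of replicate 1 were chosen with earlier results of these data known. The number of arrays limits the precision.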

Additional observations from a re-analysis of the deposited data

How the results depend on the processing

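Between the genotypes no KNOX gene was called under any alternative run, and the number of probe sets called, 0 in the main comparison and 0 in the methods' t-test (1249 and 1401 at an unadjusted p under 0.05), was 6 with the replicate block, 10 with replicate 1 as a batch term and 17 with replicates 2 and 3 alone, the last chosen after seeing the data. Leaving out single arrays gave 0 to 0 calls. The near-zero genotype value of *HOS58* turned to -0.0376 after quantile normalization, -0.0683 after centring and -0.00826 with replicates 2 and 3 alone, and with single arrays left out values ran from -0.17 to 0.18 for *HOS58*, -2.01 to 0.92 for *HOS66*, -0.94 to 0.65 for *OSH71*, -0.0266 to 0.76 for *OSH6* and -0.10 to 0.69 for *HOS59*. Those of *OSH1* (1.47 to 3.91) and *HOS13* (-2.75 to -1.39) kept their signs, and with log2(value + 16) they were 0.44 and -0.69. The replicate block changed no call of a KNOX gene.

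By replicate number 11012 probe sets and 2 KNOX genes were called as deposited. With only probe sets of at least median signal, 1 KNOX gene of the 3 left was called. Leaving out single arrays gave 7059 to 10916 probe sets, the fewest without wild-type replicate 1, and 1 to 3 KNOX genes, where a lone replicate 1 array is assumed to vary like the others. *OSH71* turned to -0.0606 after quantile normalization and to -0.00181 after centring, and ran from -0.11 to 1.46 with arrays left out. The interaction value of *HOS58* turned to -0.0310 after centring. The share of calls that were higher in replicate 1 was 48.8% as deposited, 42.3% after quantile normalization and 14.2% after centring, where array medians differed by 0.67 on the log2 scale, so directions by replicate number are relative to the scaling. The cause of these shifts was not tested.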
